A study of Mus musculus with 8 samples.

Results

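The 100 kb in front of the mouse gene Ube3a were read on both strands with a tiling microarray. Ube3a lies on the plus strand, so upstream means lower coordinates, and the minus strand is the one that carries its antisense RNA. The members are all non-control probes whose lower coordinate falls in this span, with probes whose first coordinate exceeds the second counted as minus-strand. Their probes cover chr7:66383605-66483548 on mm9. They number 1313 on each strand, 2626 in all, of the 53834 distinct probes of the array. Each plus-strand probe has a minus-strand partner at the same place, 1310 positions in all, with a median spacing of 99 bp and probe lengths of 45 to 60 bases. No mm9 annotation was used here, so the start of Ube3a is taken as the near edge of the span, a coordinate given with the span and not derived here. The span was chosen by signal of both strands seen in an earlier reading of these arrays, so the genotype changes given here describe it and their p-values are no independent support for it.

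Ube3a encodes an E3 ubiquitin ligase that neurons express mainly from the maternal chromosome. The paternal copy is silenced by Ube3a-ATS, the far end of a long non-coding transcript that starts at Snrpn on the paternal chromosome and runs through clusters of small nucleolar RNA genes before it crosses Ube3a from its 3′ end to its promoter. How far the antisense runs beyond that promoter is the question put to the upstream span.

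All RNA came from cerebral cortex of P0 mice on the C57BL/6 background. The groups of total RNA were the maternal Snrpn-Ube3a deletion (del s-u/+, n = 1), the paternal deletion of the same span (del +/s-u, n = 1), the double deletion (n = 2) and wild type (WT, n = 2). The double deletion has the maternal Snrpn-Ube3a deletion together with a paternal deletion of the Snrpn promoter, which per the series' design depletes Ube3a-ATS. The promoter deletions are designated 0.9 and 4.8. For each double deletion, title and genotype label disagree on which of them it carries, so double deletion 1 and 2 are not assigned to either, and the SD of this group holds the difference between 2 alleles. A further group is polyA RNA purified from the RNA of both wild types (n = 2). Per the series' design each single deletion had a wild-type littermate in the series, and the labels do not name which wild type belongs to which. The number of animals behind a sample is not given, and p-values then reflect the spread among these samples alone. Whether fewer cells of a type or less RNA per cell lowers a signal cannot be told apart in bulk cortex, and markers of cell types could not be read because the files name probes by position and not by gene.

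The 6 total RNA arrays had a median red intensity of 98 to 161 over a background of 36 to 38, and the polyA arrays had 45 and 44 over 34. On the total RNA arrays, 82.6% to 92.8% of the minus-strand member probes and 73.9% to 78.1% of the plus-strand ones were well above background in every spot. The lowest 2 minus-strand shares, 83.5% and 82.6%, belonged to the double deletions. Of the members, 1242 minus-strand and 1063 plus-strand probes entered the comparison of genotypes because all arrays of some group had them well above background. Levels are means of log2 signal, set against the 75th percentile of each array's probes outside the locus, so a level of 0 means the brightness of that percentile.

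The sequence directly in front of Ube3a is shown as the promoter of the gene that bounds the span, and its place among the probes was not determined. RefSeq (GRCm38.p6) places these 250 bases at chr7:59228500-59228749 on the plus strand, and the capitals mark CG pairs:
Ube3a upstream: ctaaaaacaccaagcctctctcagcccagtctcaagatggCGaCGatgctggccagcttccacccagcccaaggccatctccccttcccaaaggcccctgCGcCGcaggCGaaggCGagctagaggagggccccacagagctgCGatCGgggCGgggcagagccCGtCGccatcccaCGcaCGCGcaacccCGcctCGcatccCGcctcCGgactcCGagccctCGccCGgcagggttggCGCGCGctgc
They hold 24 CG pairs and are 70% G or C. Of the 32851 upstream windows of the same length in the RefSeq table, 12% held at least as many, and the median was 6. In the RefSeq order the genes before Ube3a are the pseudogenes Gm9377 and Gm9375, and the gene after it is Snhg14, the host RNA that includes the antisense. RefSeq coordinates are on a later build than the probes and were not carried over to them.

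The minus-strand signal just upstream of Ube3a was lower in the double deletions than in wild type over the first 40 kb, with the largest difference of a 10-kb bin next to the gene. In the 10 kb next to the gene the minus-strand level was 1.95 in the maternal deletion, 1.78 in the paternal deletion, 1.40 and 1.57 in the double deletions, and 2.18 and 2.18 in the wild types. The groups did not overlap there: both double deletions were lowest, the paternal deletion stood above them, and the maternal deletion lay between the paternal deletion and wild type. The difference from wild type was −0.23 in the maternal deletion, −0.40 in the paternal deletion and −0.69 ± 0.08 (SE) in the double deletion. From 10 to 20 kb upstream the levels were 1.94 in the maternal deletion, 1.89 in the paternal deletion, 1.54 and 1.63 in the double deletions, and 2.16 and 2.07 in the wild types. The order of the genotypes was the same, with the single deletions close together. From 20 to 30 kb they were 2.38, 2.39, 2.11 and 2.17 in the maternal, paternal and both double deletions, and 2.55 and 2.46 in the wild types. All 4 mutants lay below both wild types, the single deletions by −0.12 (maternal) and −0.11 (paternal) from the wild-type mean, beside a gap of 0.0923 between the wild types.

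Farther out the paternal deletion met the wild types while the double deletions stayed lower for some distance. From 30 to 40 kb the levels were 1.18 in the maternal deletion, 1.37 in the paternal deletion, 0.92 and 0.99 in the double deletions, and 1.35 and 1.28 in the wild types. The paternal deletion was the highest of the 6 samples there, and the maternal deletion stood between the double deletions and the wild types. From 40 to 50 kb they were 0.12, 0.17, −0.05 and 0.00 in the maternal, paternal and both double deletions, and 0.21 and 0.17 in the wild types. Between 50 and 80 kb the mean of the double deletions differed from wild type by −0.10, −0.11 and −0.13 in successive bins, and from 80 to 100 kb by 0.04 in both bins. The outermost 10 kb were bright in every sample, with 4.69, 4.88, 4.78 and 4.96 in the maternal, paternal and both double deletions, and 4.85 and 4.81 in the wild types. Saturated spots among the members of both strands numbered 17 and 22 in the double deletions and 3 to 9 on the other total RNA arrays. A saturated spot cannot read higher, and how these spots are spread over the span was not counted.

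**Figure D1:**
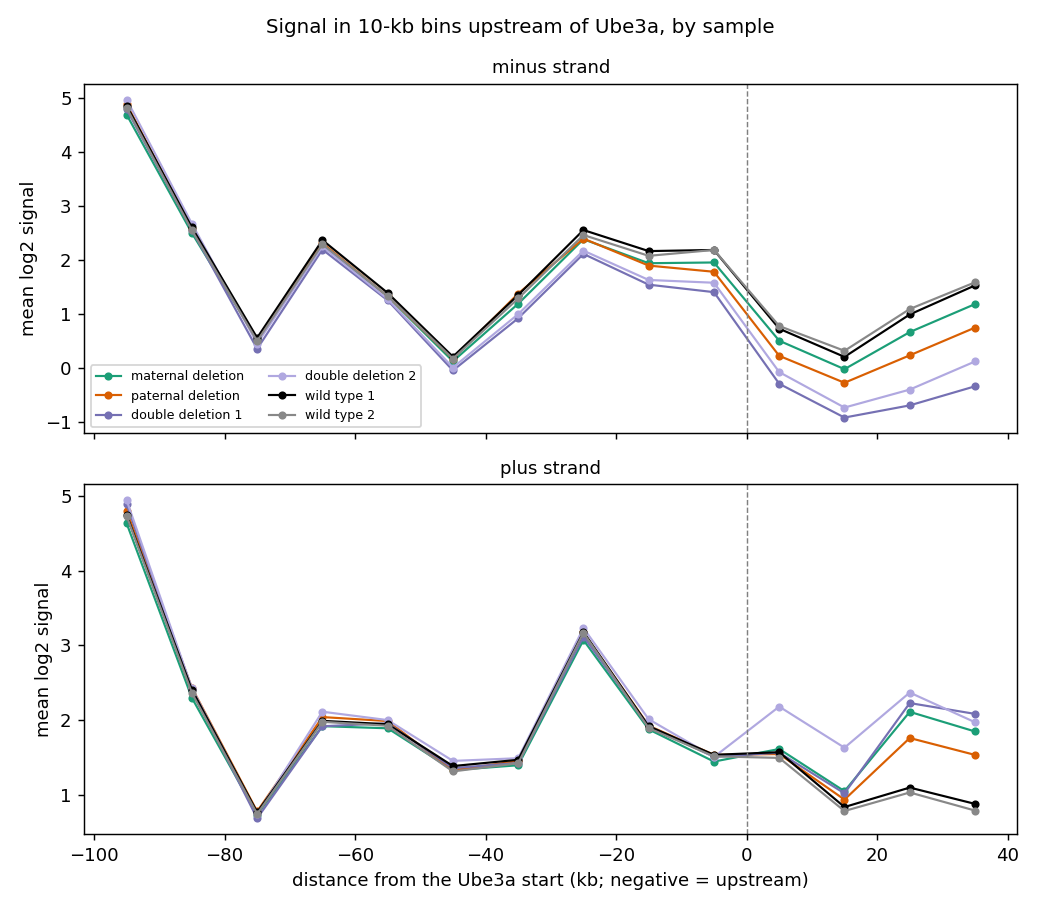
Mean log2 signal of 10-kb bins (vertical axis) against distance from the Ube3a start in kb, negative upstream, for the minus strand above and the plus strand below, 1 line per total RNA sample. On the minus strand the double deletions separate from the wild types next to the gene (1.40 and 1.57 against 2.18 and 2.18), while the plus-strand lines lie together upstream and part inside the gene.

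In limma on 10-kb bins of both strands of the whole tiled span (Benjamini-Hochberg over 356 bins, threshold 0.05), the double deletion was lower than wild type in 4 of the 10 minus-strand bins and in 0 of the 10 plus-strand bins. Of all 356 bins, 4.21% were lower. The 4 are the bins nearest the gene, with adjusted p-values of 0.024, 0.0251, 0.0486 and 0.0464 going outward. Leaving out either wild type ended every one of these calls, with 0 of 356 bins past the threshold. Scaling on the median outside the locus ended 3 of the 4 (adjusted p 0.0506, 0.138 and 0.138 in limma), scaling on the lower flank ended the outer pair (0.0565 and 0.0582), and scaling on all probes or quantile normalization ended all 4. At an unadjusted p under 0.05, 5 minus-strand and 1 plus-strand bins of the double deletion passed, beside 27.8% of all bins in both directions. The maternal and the paternal deletion, with 1 sample each, had 0 of 10 bins called on either strand, and 0% of all bins. At an unadjusted p under 0.05 the count was 1 minus-strand bin for the paternal deletion (27.5% of all bins in both directions) and 0 for the maternal deletion (16.3%). The nearest bin's p was 0.0274 before and 0.13 after adjustment in the paternal deletion. With the double deletions as separate groups, so that the wild-type pair alone sets the spread, 5 of 10 minus-strand bins were called in the double deletion (21.6% of all bins lower). These directions hold on the outside-locus scale: scaling on all probes, which include the locus itself, adds 0.03, 1.25 and 0.47 to the log2 change of the maternal, paternal and double deletion, and turns the minus-strand change over the 100 kb to 1.17 in the paternal and 0.21 in the double deletion.

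**Figure D2:**
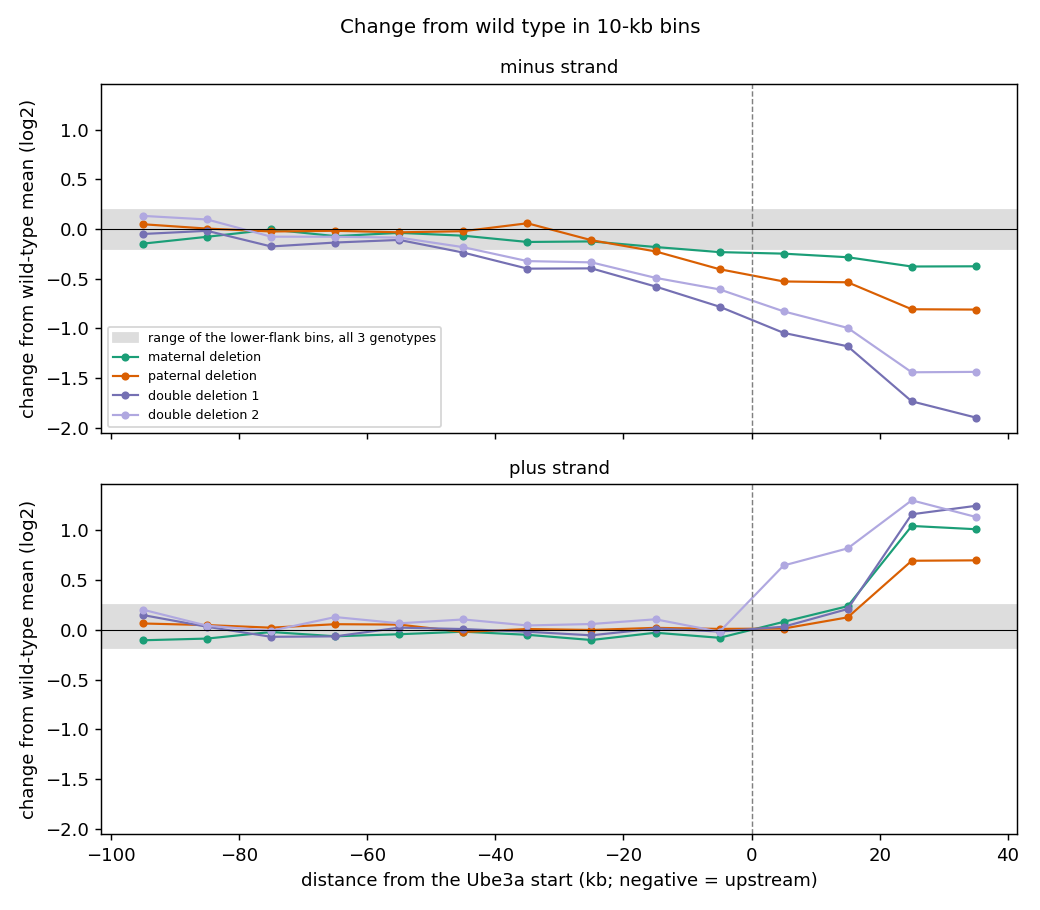
Difference from the wild-type mean (log2, vertical axis) in 10-kb bins against distance from the Ube3a start in kb, minus strand above, plus strand below, with the grey band spanning the bins of the lower flank in all 3 genotypes. The minus-strand curves reach the band at different distances, and all upstream plus-strand bins lie between −0.10 and 0.20.

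The lower flank, the tiled stretch beyond the span on the far side from Ube3a, gave the range of change away from the gene. Over its 50 minus-strand bins the change had a median of −0.02 in the maternal deletion, with a lowest value of −0.205, a median of 0.00 in the paternal deletion, with a lowest of −0.07, and a median of 0.00 in the double deletion, with a lowest of −0.08. Counting bins outward from the gene for as long as each was lower than every flank bin, the stretch reached 10 kb in the maternal deletion, 30 kb in the paternal deletion and 80 kb in the double deletion. This is a count without a test, and it moved with the settings. Over all settings tried it lay between 0 and 50 kb in the maternal deletion, between 0 and 30 kb in the paternal deletion and between 40 and 80 kb in the double deletion. Without wild type 2 the maternal deletion's count was 0 kb, and without wild type 1 the double deletion's was 50 kb. Between 50 and 80 kb the double deletion's difference of −0.10 to −0.13 stands beside gaps between the wild types of 0.0568 to 0.0784. Read in 5-kb bins, the count in the double deletion was 50 kb.

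The minus-strand differences lay mainly in the 50 kb next to Ube3a. There the change was −0.15 in the maternal deletion, −0.14 in the paternal deletion, and −0.48 and −0.39 in the double deletions. In the 50 kb beyond it was −0.06 in the maternal deletion, −0.01 in the paternal deletion, and −0.10 and −0.01 in the double deletions. Over the whole 100 kb the level was 1.77 in the maternal deletion, 1.80 in the paternal deletion, 1.62 ± 0.06 in the double deletions (SD, n = 2) and 1.88 ± 0.04 in wild type (SD, n = 2). As 1 of 38 windows of 100 kb, the double deletion differed from wild type by −0.26, with a 95% interval of −0.45 to −0.07 and an adjusted p of 0.0872 in limma, which misses the threshold. With the double deletions as separate groups of 1 sample the difference was the same, and the wild-type pair alone gave the spread. That spread was pooled over all 38 windows. The interval was −0.34 to 0.13 for the maternal deletion (adjusted p 0.925, limma) and −0.31 to 0.16 for the paternal deletion (adjusted p 0.706, limma). The double deletion differed from the maternal deletion, whose maternal allele it shares, by −0.15 over the window, with an interval of −0.38 to 0.08 and an adjusted p of 0.502 in limma.

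On the plus strand of the same span no 100-kb difference from wild type passed the test. Its 100-kb level was 2.02 in the maternal deletion, 2.10 in the paternal deletion, 2.07 and 2.15 in the double deletions, and 2.09 and 2.06 in the wild types. The maternal deletion was lowest, the paternal deletion lay just above both wild types, and the double deletions lay within and above the other samples' range. The 95% intervals of the difference from wild type were −0.26 to 0.14 in the maternal, −0.18 to 0.23 in the paternal and −0.13 to 0.20 in the double deletion, with adjusted p-values of 0.925, 0.995 and 0.699 in limma. In the bin next to the gene the plus-strand level was 1.45 in the maternal deletion, 1.54 in the paternal deletion, 1.51 and 1.51 in the double deletions, and 1.54 and 1.52 in the wild types. Just inside Ube3a the plus strand parted from this pattern: over the gene's first 10 kb it was 0.65 above wild type in double deletion 2 and 0.03 above it in double deletion 1. From 20 to 30 kb inside the gene it was higher in the double deletions by 1.16 and 1.30 (adjusted p 0.0217, limma). The single deletions were higher there too, by 1.045 in the maternal and 0.70 in the paternal deletion. No change of that size was seen among the upstream plus-strand bins.

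On both sides of the gene's start the minus strand was lower in the mutants. In 2-kb bins the double deletion's change was −0.82 in the last bin before the start and −0.60 in the first bin after it, then −1.12 in the next. The paternal deletion's was −0.52 in the last bin before the start and −0.39 in the first bin after it. The maternal deletion's was −0.25 before the start and −0.18 after it. Inside Ube3a, going away from the promoter in 10-kb bins, the paternal deletion's change was −0.53, −0.54, −0.81 and −0.81, and the maternal deletion's was −0.25, −0.28, −0.38 and −0.37. Over the same bins it was −1.04, −1.18, −1.73 and −1.90 in double deletion 1 and −0.83, −0.99, −1.44 and −1.44 in double deletion 2. In each mutant sample the fall in each of these 4 bins was larger than in the nearest upstream bin. Opposite the 5′ part of Ube3a, which lies outside the deleted span, the minus-strand change averaged −0.32 in the maternal, −0.57 in the paternal and −1.34 in the double deletion. Opposite the 3′ part, which lies within the deleted span, it averaged −0.25, −1.90 and −1.48 in the maternal, paternal and double deletion.

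Many upstream positions were bright on both strands. Across 1312 pairs of partner probes with a value on every array, the wild-type minus-strand and plus-strand levels had a Pearson r of 0.753 and a Spearman rho of 0.725. The pairs come from the same 2 libraries, partner probes share their base composition in complement, and the values are a description. Positions were therefore split at the median plus-strand level of the members, −0.18. At positions where the plus-strand probe was dim, the wild-type minus-strand level was itself graded by distance over the first 50 kb. It was 1.01 in the nearest 10 kb, 1.01 at 10 to 20 kb, 0.11 at 20 to 30 kb, −0.07 at 30 to 40 kb and −0.56 at 40 to 50 kb. In the bins from 50 to 80 kb it was −0.55, −0.70 and −0.81. From 80 to 100 kb it was −0.63 (41 positions) and −1.11 (12 positions). In the double deletions the nearest bin at these positions had −0.04 and 0.11, against 0.99 and 1.03 in the wild types, a mean difference of −0.98, or 1.97-fold lower. The paternal deletion had 0.49 there, 1.44-fold lower than wild type, and the maternal deletion had 0.72.

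The change at dim positions was also read bin by bin. Going outward from the gene in 10-kb bins, the change of double deletion 1 was −1.05, −0.81, −0.75, −0.49 and −0.33 over the first 50 kb, and that of double deletion 2 was −0.90, −0.74, −0.63, −0.44 and −0.28. The change of the paternal deletion was −0.52, −0.34, −0.31, 0.07 and −0.05, and that of the maternal deletion was −0.29, −0.22, −0.16, −0.13 and −0.08. From 50 to 80 kb the double deletion's mean stayed between −0.17 and −0.24, and from 80 to 90 kb it was −0.03. From 90 to 100 kb, where only 12 positions were dim, it was −0.14. Part of this fall was common to both strands. Less the plus-strand change at the same dim positions, the double deletion's mean was −0.85 in the nearest bin. From 50 to 80 kb it was then −0.06, −0.11 and −0.09 in successive bins. At bright positions the nearest bin differed from wild type by −0.31 and −0.09 in the double deletions, −0.20 in the paternal deletion and −0.14 in the maternal deletion. Dim positions near the gene thus showed a larger minus-strand change in log2 than bright ones in each of the 4 mutant samples. The wild-type minus-strand level of the nearest bin was 4.22 at bright and 1.01 at dim positions. How far this brightness bears on the log2 changes was not tested. This split was chosen after the values were seen and has no test.

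**Figure D3:**
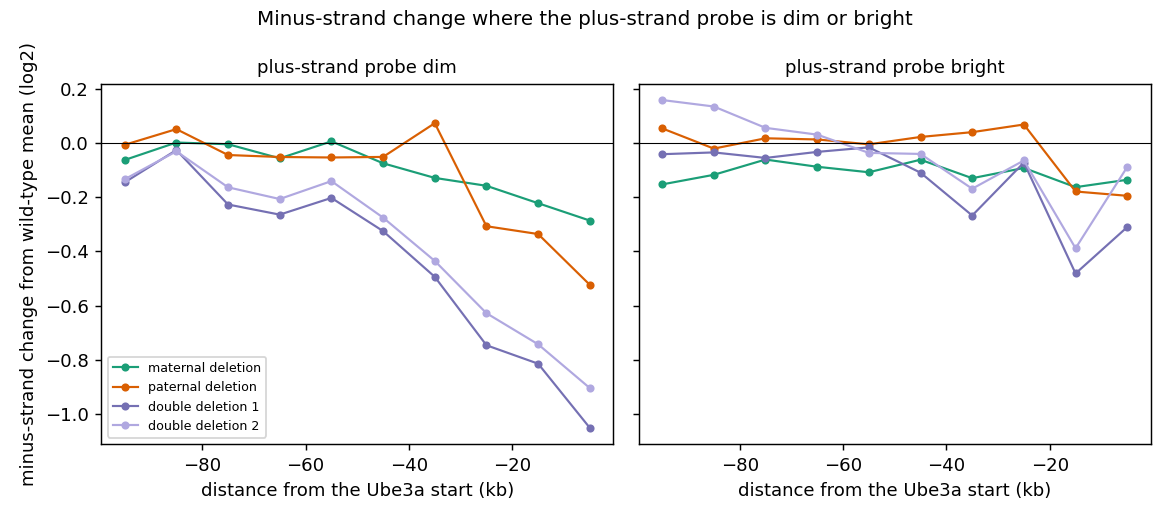
Minus-strand difference from wild type (log2, vertical axis) in 10-kb bins against distance from the Ube3a start in kb, at positions whose plus-strand partner is dim (left) or bright (right), 1 line per mutant sample. At dim positions the double deletions lie at −1.05 and −0.90 next to the gene, and at bright positions at −0.31 and −0.09.

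Subtracting the plus-strand change at the same positions removes whatever scales a whole array. In the nearest 10 kb the remaining minus-strand difference from wild type was −0.15 in the maternal deletion, −0.40 in the paternal deletion, and −0.71 and −0.56 in the double deletions. Over the whole 100 kb it was −0.04, −0.09, −0.26 and −0.24 in the maternal, paternal and both double deletions. Over the lower flank it was 0.01 in the maternal deletion, −0.01 in the paternal deletion, and −0.01 and 0.03 in the double deletions. Measured this way the bins below every flank bin reached 20 kb in the maternal, 20 kb in the paternal and 40 kb in the double deletion. In the paternal deletion the bin at 20 to 30 kb had −0.10, beside −0.13 in the lowest flank bin.

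Probe by probe, 666 of the 1242 tested minus-strand members (53.6%) were lower in both double deletions than in both wild types, beside 38.8% of all 49275 tested probes. On the plus strand the count was 270 of 1063 (25.4%). For the paternal deletion, 575 minus-strand probes (46.3%) and 315 plus-strand probes (29.6%) were below both wild types, beside 42.8% of all tested probes. For the maternal deletion the counts were 774 (62.3%) and 562 (52.9%), beside 50.8%. In the paternal deletion the minus-strand share was 82.5% in the nearest 10 kb, 71.2% and 60.5% in the next bins, and between 18.9% and 48.2% farther out. In the double deletion it lay between 53.8% and 70.1% over the first 50 kb and was 23.2% and 22.7% in the outermost bins. In limma over single probes (Benjamini-Hochberg over 49275 probes) the double deletion was lower at 131 minus-strand members (10.6%) and at 1 plus-strand member, beside 2.91% of all probes. By distance, 49 of 137 probes were called in the nearest 10 kb, then 38 of 125, 24 of 119 and 18 of 141. From 40 to 70 kb none was called, from 70 to 80 kb 2 of 127 were, and beyond that none. No member was called in either single deletion, where 0% of all probes passed.

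**Figure D4:**
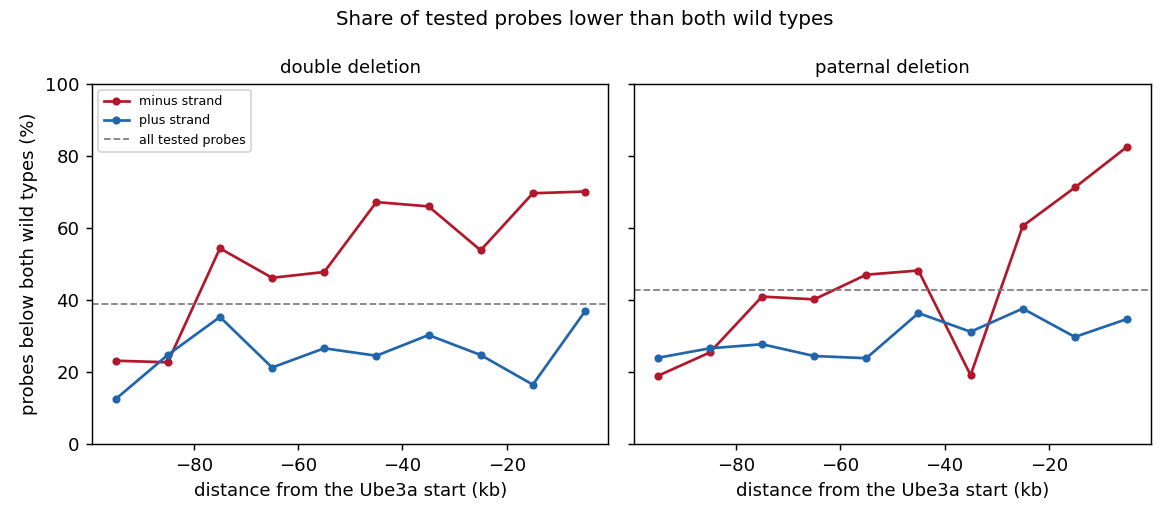
Share of tested probes (%, vertical axis) lower than both wild types in both double deletions (left) and in the paternal deletion (right), by 10-kb bin against distance from the Ube3a start in kb, with the dashed line at the share over all tested probes. The minus-strand share of the paternal deletion reaches 82.5% next to the gene and that of the double deletion 70.1%, whereas their plus-strand shares stay below the dashed line.

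Single probes did not all follow their neighbours. The 3 minus-strand members with the largest fall in the paternal deletion, among those well above background in both wild types, lie 84874, 96957 and 17180 bp upstream. Probe RC_A_67_P14807844 (chr7:66398658-66398702) had 3.60 in the maternal deletion, −0.75 in the paternal deletion, 0.18 and 2.44 in the double deletions, and 3.61 and 3.53 in the wild types. Its level in the paternal deletion was thus 4.32 log2 units under the wild-type mean, and the double deletions differed from each other. The minus-strand probe that overlaps it, starting 17 bp farther on, had −0.77, −0.63, −1.06 and −0.94 in the maternal, paternal and both double deletions, and −0.64 and −0.40 in the wild types. It did not share the pattern. In the bright minus-strand plateau between Ube3a and Snrpn (chr7:66600069-66869974, 2510 probes) the level was 5.28 in the maternal deletion, 0.36 in the paternal deletion, 2.06 and 4.25 in the double deletions, and 5.54 and 5.34 in the wild types. Probe RC_CUST_4510_PI425394930 (chr7:66386575-66386634) was bright everywhere, with 8.16 in the maternal deletion, 7.04 in the paternal deletion, 8.10 and 8.10 in the double deletions, and 8.45 and 8.06 in the wild types. Probe RC_A_67_P14808057 (chr7:66466352-66466411) had −0.32 in the maternal deletion, −0.52 in the paternal deletion, −1.41 and −1.30 in the double deletions, and 0.42 and 0.76 in the wild types. Of the 3 it is the one inside the bins called for the double deletion.

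At the limits of the span, the last minus-strand member before the gene (chr7:66483499-66483548) had 2.08 in the maternal deletion, 1.86 in the paternal deletion, 1.76 and 1.65 in the double deletions, and 2.30 and 2.20 in the wild types. The first probe past the limit on that strand, RC_A_67_P14808125, had 3.13, 2.77, 2.99 and 2.92 in the maternal, paternal and both double deletions, and 3.16 and 3.04 in the wild types. At the far end the outermost minus-strand member (chr7:66383605-66383664) had 7.80, 8.08, 7.95 and 7.92 in the maternal, paternal and both double deletions, and 8.12 and 7.97 in the wild types. The next probe beyond it (chr7:66383495-66383554) had 7.93, 7.98, 8.04 and 7.75 in the mutants and 7.73 and 7.80 in the wild types.

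PolyA RNA was set against total RNA of the same wild types on 1180 minus-strand and 952 plus-strand members. The minus-strand level was 1.85 and 1.73 in polyA RNA, against 2.08 and 2.02 in total RNA. The plus-strand level was 2.08 and 1.98 in polyA RNA, against 2.49 and 2.45 in total RNA. The groups did not overlap on either strand, and polyA RNA was lower by 0.26 on the minus strand and by 0.44 on the plus strand. Both passed in limma, with adjusted p-values of 3.05e-04 and 4.54e-09 over 38 windows. That fit gave all 38 windows the same SE, 0.0648, so these p-values do not measure the spread of this window alone. The direction rests on the scale: on the scale of all probes polyA RNA was higher by 1.08 on the minus strand and by 0.90 on the plus strand. The lower flank differed in the same direction on the outside-locus scale, by −0.19 on the minus strand and −0.15 on the plus strand.

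Between bins the polyA difference was uneven. On the minus strand 5 of 10 bins were lower and 3 higher in polyA RNA in limma, and on the plus strand 5 were lower and 0 higher, beside 46.9% of all 356 bins lower and 21.3% higher. These counts hold on the reported scale only. Scaled on all probes, 0 bins were lower and 9 higher on each strand (13.5% of all bins lower and 81.7% higher). Scaled on the median outside the locus, all 10 were lower on each strand (100% of all bins). On outside-locus probes well above background, 4 were lower and 5 higher on each strand (31.2% of all bins lower and 52% higher). Scaled on the lower flank, 7 (minus) and 10 (plus) were lower and 0 higher (87.9% of all bins lower and 0.281% higher). In the 10 kb next to Ube3a the minus-strand level was 1.70 and 1.58 in polyA RNA, against 2.18 and 2.18 in total RNA (adjusted p 0.00212, limma). The plus-strand level in that bin was 2.07 and 2.07 in polyA RNA, against 2.12 and 2.09 in total RNA (adjusted p 0.426, limma). At 20 to 30 kb the plus-strand level was 2.60 and 2.51 in polyA RNA, against 3.97 and 3.95 in total RNA. The minus-strand level of that bin was 2.80 and 2.66 in polyA RNA, against 2.55 and 2.46 in total RNA. The polyA difference of the minus strand less that of the plus strand, which the scale of an array does not move, was −0.51 at 0 to 10 kb. At 20 to 30 kb it was 1.63, and neither value was tested. The strands of a bin differ in brightness and in tested probes, 119 (minus) and 86 (plus) at 20 to 30 kb. The polyA arrays lay near background, and how far brightness bears on this gap was not tested.

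**Figure D5:**
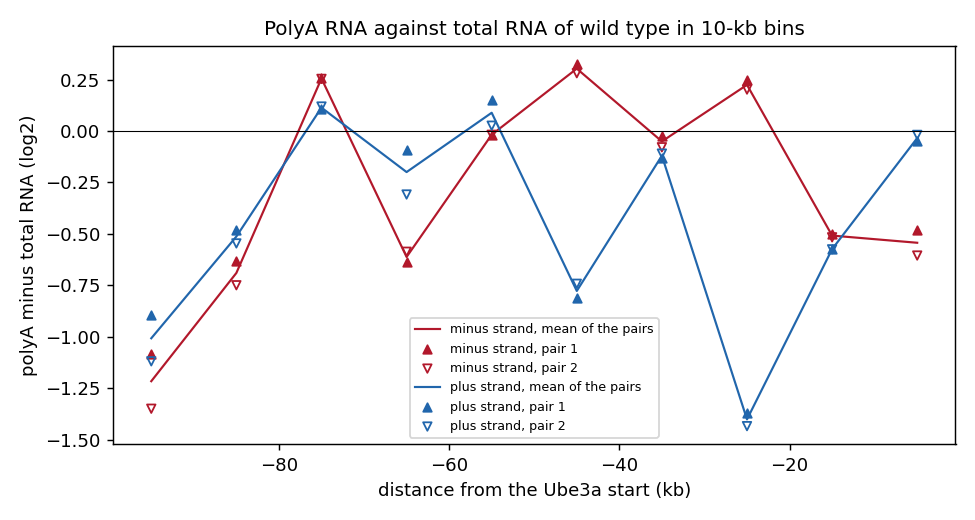
PolyA minus total RNA of wild type (log2, vertical axis) in 10-kb bins against distance from the Ube3a start in kb, with 1 marker per wild type and lines through the mean of the pairs. On the outside-locus scale the minus strand lies at −0.54 and the plus strand at −0.03 next to the gene, and at 20 to 30 kb they lie at 0.22 and −1.40.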

How the data were processed

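Cy5-labelled first-strand cDNA of total RNA (15 µg) or polyA RNA (750 ng, purified from 30 µg of total RNA), primed with random hexamers per the labels' protocols, was hybridised to a custom Agilent tiling array on mm9, 8 arrays on 1 slide with 1 scan, so no batch could be fitted. The deposited scanner files hold linear intensity values per spot with no normalization between arrays, made with Agilent Feature Extraction 10.7.3.1 per the file headers (10.9 per the submitters' processing notes). The labels name the red median signal as the value, and that column was used. The green channel held no labelled sample, with a median of 27 on every array. The series matrix deposited by the authors holds rescaled intensity values of catalogue probes inside the locus only. Its scaling is not stated in the sources at hand, and it served as an alternative.

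Intensities were background-corrected (normexp, offset 50) with limma 3.58.1 (R 4.3.3), converted to log2, averaged per probe after control and outlier-marked spots were left out, and scaled to the 75th percentile of the 3338 probes outside chr7:65790585-67800765. Tested probes were averaged in 100-kb windows and 10-kb bins with at least 3 probes, laid from position 66483532. The upstream span is 66383532 to 66483531, the lower flank 65890585 to 66383531, and the 5′ and 3′ parts of Ube3a 66483532 to 66526900 and 66526901 to 66566852. Groups were compared with limma's lmFit and eBayes in two-sided tests at 0.05 after Benjamini-Hochberg adjustment. A single fit held the 6 total RNA samples in 4 groups with a common spread, which the single deletions borrow. The 4 wild-type samples formed the polyA fit. PolyA and total RNA with the same wild-type number come from the same RNA per the labels and the series' design. The correlation of their deviations over 356 bins was 0.0751. The script was tested on simulated data. Alternatives covered background correction, scaling, the filter on dim probes, the deposited matrix, grouping and left-out samples. Every upstream bin was to be named, with the 3 minus-strand probes falling most in the paternal deletion. The members, lists and tests were chosen with earlier results of these data known. Lists of genes and cell type markers were not applied, because the probes carry no gene names and no mm9 annotation was used here. The number of arrays limits the precision.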

Additional observations from a re-analysis of the deposited data

How the results depend on the processing

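Scaling moved the values most. Scaled on all probes, the minus-strand change over the 100 kb was 1.17 in the paternal deletion, 0.21 in the double deletion and 0.29 in the double against the maternal deletion, the plus-strand change of the paternal deletion was 1.28, and polyA RNA was higher by 1.08 (minus) and 0.90 (plus). On that scale the nearest 3 minus-strand bins of the paternal deletion were 0.85, 1.03 and 1.14, the bins at 20 to 30 and 30 to 40 kb of the double deletion 0.10 and 0.11, and 335 and 34 bins were called in the paternal and the double deletion, where the reported fit called 0 and 68. Quantile normalization gave 0.41 for the minus strand of the paternal deletion, 0.24, 0.47 and 0.39 in its nearest bins, 80 called bins, 0.076 for the double against the maternal deletion, 0.36 and 0.26 for polyA RNA on the minus and plus strand, and stretches of 50, 0 and 50 kb in the maternal, paternal and double deletion. On outside-locus probes well above background the double deletion had −0.35 (adjusted p 0.0363, limma) on the minus and −0.055 on the plus strand, and polyA RNA 0.13 and −0.0545 on the minus and plus strand. Scaled on the lower flank, 26 bins were called in the maternal deletion, beside 0 in the reported fit.

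With the scanner software's background-subtracted signal the double deletion's minus strand had −0.37 (adjusted p 0.0328, limma), the plus strand of the paternal deletion −0.0077, polyA RNA 0.33 and 0.22, the maternal stretch 20 kb, and 58 and 98 bins were called in the maternal and paternal deletion. Without background correction polyA RNA had −0.088 on the minus strand and 31 bins were called in the maternal deletion. Without the filter on dim probes the plus strand of the double deletion had −0.0023 and polyA RNA −0.13 and −0.021. With only probes well above background on every array the double deletion's stretch was 50 kb. The deposited matrix gave −0.073 for the plus strand of the paternal deletion, 55 called bins and a stretch of 20 kb in the maternal deletion. In 5-kb bins the stretch was 5 kb in the maternal and 50 kb in the double deletion, in bins shifted by 5 kb it was 15 kb in the paternal deletion, and read against 90% of the flank bins it was 40 kb in the maternal deletion.

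With the double deletions as separate groups the minus strand of the double deletion had −0.26 (adjusted p 7.37e-05, limma), and 69, 105, 143 and 91 bins were called in the maternal, paternal, double, and double against maternal comparison. That fit holds no spread of any deletion's own, only that of the wild-type pair. For the double deletion against wild type it gave all 38 windows the same SE, 0.0539, so its p-value does not measure the spread of this window alone. The remaining alternatives were chosen after seeing the data. Catalogue probes only gave 0.0053, −0.0026 and −0.026 on the plus strand of the maternal, paternal and double deletion, −0.031 there for the double against the maternal deletion, −0.42 (adjusted p 0.0229, limma) on the minus strand of the double deletion, 0.26 and 0.25 for polyA RNA, 38 called bins and 20 kb in the maternal deletion. Positions with a dim plus-strand probe gave −0.43 (adjusted p 0.021, limma) on the minus and −0.077 on the plus strand of the double deletion, −0.060 on the plus strand of the double against the maternal deletion, 0.22 and 0.68 for polyA RNA, 31 called bins in the maternal deletion, and stretches of 20 and 50 kb in the maternal and double deletion. The change less that of the plus strand gave 20 and 40 kb there.

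Leaving out 1 sample at a time, the double deletion's minus strand lay between −0.30 and −0.21 and its plus strand between −0.0020 and 0.072, the double against the maternal deletion between −0.19 and −0.10 on the minus strand, polyA RNA between −0.32 and −0.19 on the minus strand, and the stretch between 0 and 10 kb in the maternal and between 50 and 80 kb in the double deletion. The called bins lay between 0 and 75 in the maternal, 0 and 108 in the paternal, 0 and 173 in the double deletion, and 0 and 102 in the double against the maternal comparison. Leaving out either wild type ended every bin call of the double deletion. Without double deletion 1 or 2 its calls were 145 or 173 bins, and the lone sample is then assumed to vary like the other groups. With the replicate block for polyA and total RNA of the same wild type the differences were −0.26 and −0.44. Their adjusted p-values in limma were 2.69e-08 and 1.87e-14, again with the same SE, 0.0359, for all 38 windows. With the block 259 bins were called, beside 243 without it, and neither window changed its call. Dim signal limits the plus strand, where 1063 of 1313 members could be tested. For the 4 nearest minus-strand bins of all genotypes, 176 values kept their direction and call, 25 lost the call, 7 gained it and 8 turned sign, which are given above.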
